A study of Mus musculus with 10 samples.

Results

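The B cell antigen receptor signals through a small set of proteins. This account follows the transcripts of 9 of them in mature bone marrow B cells sorted as Chat+ or Chat-. The members were taken by name from the table of expression values, and all 9 had a row among its 14450 genes. They are the signalling chains Cd79a and Cd79b, the coreceptor tetraspanin Cd81, the Src family kinases Lyn and Blk, the kinases Syk and Btk, the adaptor Blnk and the phospholipase Plcg2.

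RNA was sequenced from B cells sorted by flow cytometry as Chat+ (5 libraries) or Chat- (5 libraries). All cells of both groups came from the bone marrow of Chat-GFP mice, so both groups carry the reporter, and all mice were unchallenged (steady state). Chat encodes choline acetyltransferase, which makes acetylcholine. The sources used here give neither the reporter's construction nor the ages of the mice, nor how many animals stand behind each library. The p-values therefore rest on the spread among these 10 libraries, which may be partly technical.

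An antigen receptor consists of a membrane antibody that binds antigen and a Cd79a-Cd79b heterodimer that carries the signal into the cell. Each chain of the heterodimer holds an immunoreceptor tyrosine-based activation motif (ITAM), a pair of tyrosines that Lyn and other Src family kinases phosphorylate and that Syk then binds. Syk phosphorylates the adaptor Blnk, on which Btk and Plcg2 assemble, and Plcg2 then cleaves a membrane lipid into the messengers that release calcium and activate protein kinase C.

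The ITAM is the site at which the receptor chains and the kinases among the 9 genes meet, so its coding stretch is shown for both chains. In each line the capitals mark the tyrosine codons, and the stretch runs over the exons with the intron left out (GRCm38, GENCODE M21 transcripts).
Cd79a: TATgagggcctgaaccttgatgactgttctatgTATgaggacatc
Cd79b: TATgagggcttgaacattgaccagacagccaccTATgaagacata
The Cd79a stretch begins in exon 4 and ends in exon 5 of 5, at chr7:24901296-24901469 on the plus strand, with its tyrosine codons at positions 182 and 193 of 220. The Cd79b stretch begins in exon 5 and ends in exon 6 of 6, at chr11:106311867-106312012 on the minus strand, with its tyrosine codons at positions 195 and 206 of the 228-codon form. The stretches are 45 bases each and identical at 31 of them, and a search for the same motif in the coding frames of the other members found it in 0 of them.

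Depth, estimated from the low values of the table, was 21530000 to 30060000 reads per library, and Chat itself stood at 31.1 to 111 CPM (counts per 1000000) in Chat+ and 1.17 to 19.7 CPM in Chat-. The 8 B cell reference genes, among them Ms4a1 and Pax5, summed to 18992 to 19889 CPM in Chat+ and 17868 to 19918 CPM in Chat-. Of 15 T and NK cell markers 4 had a row, and they summed to at most 5.24 CPM in any library. The other 11 were not analysed here. The library Chat- replicate 4 stood apart. Mitochondrial genes held 11.9% of its CPM, beside 2.27% to 3.85% in any of the other 9, and 1213 genes were listed at 0 there against 62 to 682. Lyn, Syk, Btk and Plcg2 are also used by myeloid cells, whose 14 markers summed to 72.9 to 139 CPM in Chat+, 53.6 to 78.9 CPM in the other 4 Chat- libraries and 259.6 CPM in Chat- replicate 4. Stromal and endothelial markers (13 of 15 with a row) summed to 597 CPM in that library and to 288.9 to 430.3 CPM in the other 9. The sums of the other marker lists overlapped between the groups, with erythroid genes at 460.3 to 1105 CPM, neutrophil genes at 23.1 to 138 CPM, plasma cell genes at 272 to 529 CPM and precursor B cell genes at 63.4 to 167 CPM over the 10 libraries. Platelet genes summed to 17.0 to 48.4 CPM, mast cell and basophil genes to 0.0728 to 9.03 CPM, and plasmacytoid dendritic cell genes, several of which B cells also express, to 2259 to 2673 CPM. Of the T and NK cell markers, Cd4, Lat and Prf1 were listed at 0 in at least 1 library. The part of such cells in the levels below was not tested, and fewer cells of a type and less RNA per cell cannot be told apart in pooled cells.

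Transcripts of the receptor and its first kinases were at close to the same level in both groups. Of the 9 members, 0 passed the test (limma, Benjamini-Hochberg adjustment over all genes, adjusted p = 0.999 for each). Across all genes of the file 1 of 14450 passed, or 0.00692%. That gene was lower in Chat+, and 0 genes passed as higher. Chat therefore did not pass, although its lowest Chat+ value (31.1 CPM) lay above its highest Chat- value (19.7 CPM). A count of 0 members passed thus does not by itself show equal levels. The log2 fold changes of the members ran from -0.11 to 0.10. At an unadjusted p under 0.05 there were also 0 members, where 4.51% of all genes were, so that fewer than 1 of 9 would match that share. Of the members 0 also passed with limma-voom (0% of all genes), with library quality weights (0.727%) or without Chat- replicate 4 (0.0415%). The groups overlapped for all 9 members, while 1.43% of all genes had groups that did not overlap (1.12% higher in Chat+ and 0.304% lower). The 95% confidence intervals, which are not adjusted for the number of genes, ran from 0.786-fold for Cd79a to 1.38-fold for Blk at their outer ends. All 9 intervals thus lay within 1.5-fold in either direction, as did those of 44.1% of all genes and of 84.0% of the 1280 genes whose mean was at least that of Cd81, the lowest member.

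**Figure D1:**
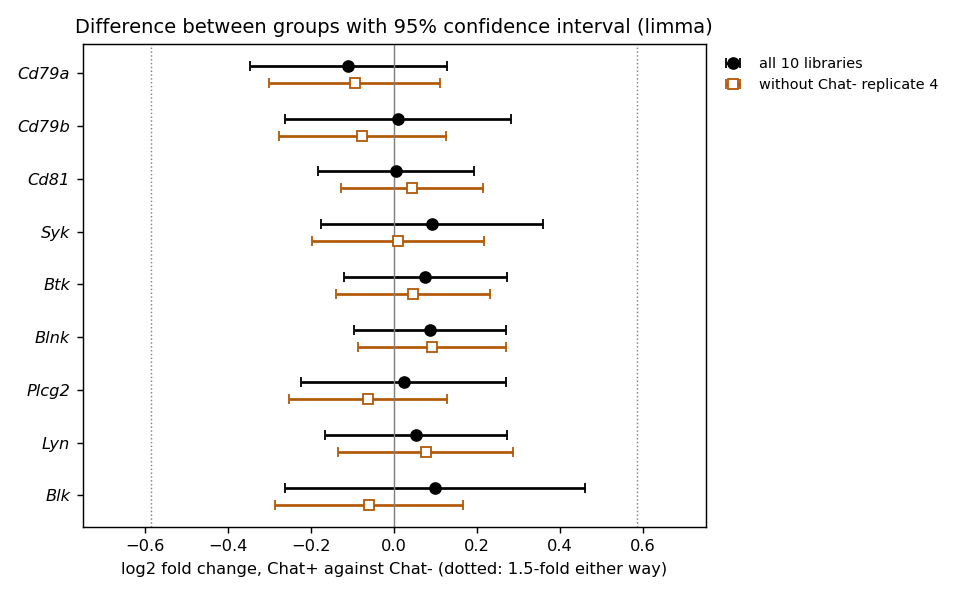
Log2 fold change of each member, Chat+ against Chat-, with its 95% confidence interval from limma, for all 10 libraries (filled circles) and without Chat- replicate 4 (open squares). All intervals include 0 and lie within the dotted lines at 1.5-fold, and Blk, Cd79b and Plcg2 move from above 0 to below it when that library is left out.

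Cd79a, the alpha signalling chain, had 2037, 1947, 2159.9, 1854 and 2147 CPM in Chat+ replicates 1 to 5, and 2269, 2179.9, 2125, 2278 and 2085 CPM in Chat- replicates 1 to 5. The Chat- libraries lay toward the upper end, but the lowest of them fell below 2 Chat+ libraries. The means were 2029 ± 131 CPM across Chat+ libraries and 2188 ± 85.6 CPM across Chat- (SD, n = 5), with a log2 fold change of -0.11 ± 0.11 (SE). It was the 1 member with a lower estimate in Chat+, while Cd79b, Cd81 and Plcg2 also had estimates below 0 with trimmed mean or median-of-ratios scaling. The gene lies on chromosome 7 at 24897381 to 24902197, plus strand, and 12.2% of its 31-base words also occur in Gm32220, a processed pseudogene on chromosome 12 at 52079014 to 52079311. Gm32220 was listed at 178 to 244 CPM in 9 libraries and at 0 in Chat- replicate 4, the library with the highest Cd79a level. Summed, both rows gave 2224 ± 121 CPM across Chat+ libraries and 2366 ± 95.3 CPM across Chat- (SD, n = 5), and Chat- replicate 4 was then the lowest Chat- library, at 2278 CPM.

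Cd79b, the beta chain, had 1903, 1947, 1869, 1730.0 and 1884 CPM in Chat+ replicates 1 to 5, and 2069, 1875, 1854, 1463 and 2079.5 CPM in Chat- replicates 1 to 5. The Chat+ libraries were close together, and the wider spread of Chat- came from replicate 4, the lowest of all 10. The means were 1866 ± 81.7 CPM and 1868 ± 249.8 CPM (SD, n = 5), with a log2 fold change of 0.01 ± 0.13 (SE). Without Chat- replicate 4 the log2 fold change was -0.08 (limma adjusted p = 0.914). Cd79b lies on chromosome 11 at 106311341 to 106314762, minus strand, and shares 0 of its 31-base words with other genes.

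The chains of the heterodimer are needed in equal number at the membrane, so their ratio within each library, which does not depend on scaling, was also read. Cd79b to Cd79a was 0.934, 0.9998, 0.865, 0.933 and 0.877 in Chat+ replicates 1 to 5, and 0.912, 0.86, 0.872, 0.642 and 0.997 in Chat- replicates 1 to 5. Outside Chat- replicate 4 the 9 libraries thus shared a narrow range. The ratio does depend on how shared reads were assigned to Cd79a or to the pseudogene Gm32220. Gm32220 was listed at 0 in Chat- replicate 4 and at 178 to 244 CPM in the other 9. The part of that assignment in the low ratio of Chat- replicate 4 was not tested. The mean log2 ratio was -0.12 ± 0.08 over Chat+ libraries and -0.24 ± 0.24 over Chat- libraries (SD, n = 5), and -0.14 in Chat- without replicate 4.

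Cd81 is a tetraspanin of the B cell coreceptor complex. It had 150.3, 166, 158, 149 and 176 CPM in Chat+ replicates 1 to 5, and 152, 157, 149, 177 and 162 CPM in Chat- replicates 1 to 5. The groups covered the same range, and the means were 159.8 ± 11.4 CPM and 159.4 ± 10.996 CPM (SD, n = 5; log2 fold change 0.00 ± 0.09, SE). Cd81 is also made by stromal, endothelial and myeloid cells. Its highest library, Chat- replicate 4 (177 CPM), was also the one with the highest sums of those markers, but Chat+ replicate 5 was nearly as high (176 CPM). Of the members that myeloid cells also use, Syk and Plcg2 were at their lowest in Chat- replicate 4. Relative to the other Chat- libraries, Btk was lower there and Lyn higher. Whether such cells account for the Cd81 level was not tested. The gene lies on chromosome 7 at 143052739 to 143067934, and R74862, a transcript of the opposite strand, overlaps it and shares words with it.

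**Figure D2:**
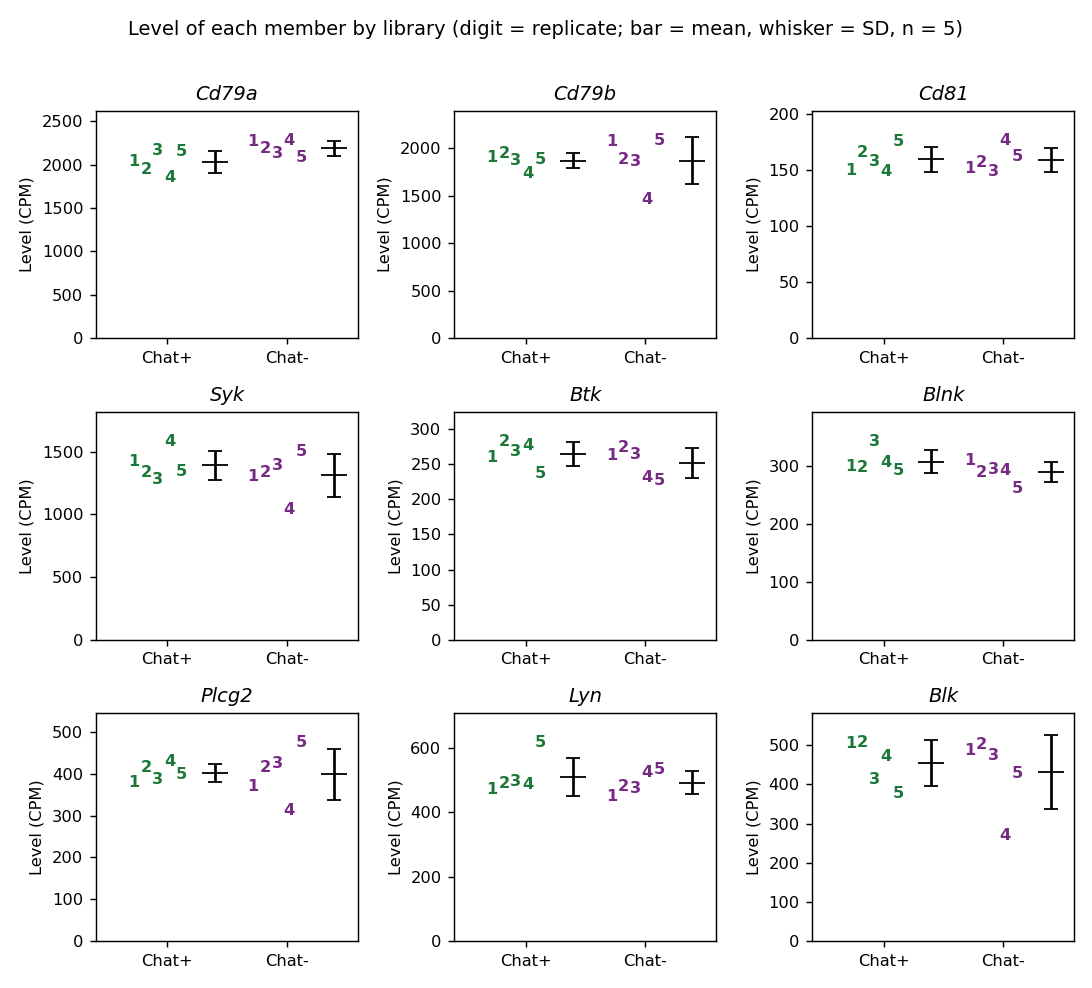
Level of each of the 9 members in CPM (linear axes from 0), with Chat+ at the left and Chat- at the right of each panel. Each digit is a library and gives its replicate number, and the bar and whisker are the mean and SD of 5 libraries. The groups overlap in every panel, and Chat- replicate 4 is the lowest library for Cd79b, Syk, Plcg2 and Blk.

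Lyn starts the signal by phosphorylating the ITAMs and also phosphorylates inhibitory receptors, which gives it a restraining role as well. It had 469, 488, 494, 487 and 615 CPM in Chat+ replicates 1 to 5, and 449, 479, 472, 523 and 533 CPM in Chat- replicates 1 to 5. Chat+ replicate 5 was the highest of all 10 libraries, and the other 4 Chat+ libraries lay inside the Chat- range. The means were 510.7 ± 59.2 CPM and 491 ± 35.5 CPM (SD, n = 5), with a log2 fold change of 0.05 ± 0.10 (SE). Lyn lies on chromosome 4 at 3678115 to 3813122, and 22.8% of its 31-base words occur in other genes, mostly the pseudogene Gm11787, so the assignment of part of its reads is uncertain. It also overlaps 4 genes of the opposite strand, one of them the lincRNA Gm26857.

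Blk is a Src family kinase found mainly in B cells. It had 505, 506, 414, 472 and 377 CPM in Chat+ replicates 1 to 5, and 486, 501, 475, 271 and 427 CPM in Chat- replicates 1 to 5. It varied most among the 9 members, with Chat+ replicate 5 low in its group and Chat- replicate 4 the lowest of all. The means were 454.8 ± 57.6 CPM and 432 ± 94.3 CPM (SD, n = 5; log2 fold change 0.10 ± 0.17, SE), and the estimate became -0.06 without Chat- replicate 4 (limma adjusted p = 0.943). Blk lies on chromosome 14 at 63372836 to 63417037, minus strand, and shares 0 words with other genes.

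The ratio of Lyn to Blk within a library varied more than that of the receptor chains. It was 0.929, 0.964, 1.19, 1.03 and 1.63 in Chat+ replicates 1 to 5, and 0.924, 0.955, 0.995, 1.93 and 1.25 in Chat- replicates 1 to 5. One library in each group, Chat+ replicate 5 and Chat- replicate 4, thus had the highest ratios. The mean log2 ratio was 0.17 ± 0.33 over Chat+ libraries and 0.22 ± 0.44 over Chat- libraries (SD, n = 5), so the difference of -0.05 was far inside the spread, and it was 0.14 without Chat- replicate 4.

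Syk binds the phosphorylated ITAMs and is the kinase without which the receptor does not signal onward. It had 1424, 1336, 1279, 1580.3 and 1344 CPM in Chat+ replicates 1 to 5, and 1303, 1334, 1393, 1038 and 1500.3 CPM in Chat- replicates 1 to 5. The highest library was a Chat+ one and the lowest was Chat- replicate 4, while the other 8 were interleaved. The means were 1393 ± 117 CPM and 1314 ± 171 CPM (SD, n = 5), with a log2 fold change of 0.09 ± 0.12 (SE) that became 0.01 without Chat- replicate 4 (limma adjusted p = 0.992). Syk lies on chromosome 13 at 52583173 to 52648792, plus strand.

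Btk, the Tec family kinase whose loss causes X-linked B cell deficiency, had 260.0, 282, 269, 276 and 238 CPM in Chat+ replicates 1 to 5. In Chat- replicates 1 to 5 it had 263, 275, 264, 231 and 227 CPM. The lowest 3 libraries were Chat- replicates 5 and 4 and Chat+ replicate 5, and the other 7 were interleaved. The means were 265 ± 17.5 CPM and 252 ± 21.4 CPM (SD, n = 5; log2 fold change 0.08 ± 0.09, SE). Btk lies on the X chromosome at 134542336 to 134583570, minus strand. The ratio of Syk to Btk ran from 4.73 to 5.72 in Chat+ and from 4.49 to 6.61 in Chat-, with mean log2 ratios of 2.39 ± 0.14 and 2.38 ± 0.21 (SD, n = 5).

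Blnk, the adaptor that joins Syk to Btk and Plcg2, had 299, 297, 342, 306 and 293 CPM in Chat+ replicates 1 to 5. In Chat- replicates 1 to 5 it had 310.0, 289, 294, 292 and 261 CPM. Chat+ replicate 3 was high and Chat- replicate 5 low, and the other 8 libraries lay between 289 and 310.0 CPM. The means were 307 ± 20.1 CPM and 289 ± 17.7 CPM (SD, n = 5; log2 fold change 0.09 ± 0.08, SE). Its 95% interval, 0.935-fold to 1.21-fold, was the narrowest of the 9 on the log2 scale. The gene lies on chromosome 19 at 40928927 to 40994535, minus strand.

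Plcg2, the phospholipase at the end of this chain, had 378, 416, 386, 429 and 397 CPM in Chat+ replicates 1 to 5. In Chat- replicates 1 to 5 it had 369, 414, 424, 311 and 474 CPM. All Chat+ libraries lay inside the Chat- range, whose ends were replicates 4 and 5. The means were 401 ± 20.9 CPM and 398 ± 61.4 CPM (SD, n = 5; log2 fold change 0.02 ± 0.11, SE), and without Chat- replicate 4 the estimate was -0.06 (limma adjusted p = 0.93). Plcg2 lies on chromosome 8 at 117498291 to 117635142, plus strand.

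Between genes, levels can be compared only per length, here CPM per kb of the longest coding transcript. The receptor chains were far above the enzymes. Cd79a had 1393 ± 89.9 CPM per kb in Chat+ and 1501 ± 58.7 in Chat-, and Cd79b had 1304 ± 57.1 and 1305 ± 175 (SD, n = 5). Cd79a was above Cd79b in 8 of 10 libraries. Syk followed with 259.7 ± 21.8 CPM per kb in Chat+ and 245 ± 32.0 in Chat-, and Blk with 195.5 ± 24.8 and 186 ± 40.5. Lyn (147 ± 17.1 and 142 ± 10.3) and Blnk (147 ± 9.59 and 138 ± 8.42) could not be ordered, since Lyn was the higher in 4 of 10 libraries. Cd81 (104 ± 7.44 and 104 ± 7.17) and Btk (104 ± 6.89 and 99.2 ± 8.43) could not be ordered either, with Cd81 the higher in 3 of 10, and Plcg2 came last with 93.4 ± 4.87 and 92.7 ± 14.3. The order below Cd79b depends on the length used. With the union of all exons Blk stood above Syk in 7 of 10 libraries, and Blnk came last with 51.3 CPM per kb in Chat+ and 48.3 in Chat-.

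The members did not rise and fall as a unit across libraries. Over 10 libraries the 36 pairs had a median Pearson correlation of log2 CPM of -0.11, from -0.74 for Blk with Cd81 to 0.86 for Plcg2 with Syk. These values share library and scaling, and some move with Chat- replicate 4. Of 5 pairs above 0.7 with all libraries, 1 pair was above it without that library, namely Lyn with Cd81, at 0.78 with and 0.83 without it. Pairs below -0.7 numbered 2 with it and 3 without it, and the strongest without it was Blk with Lyn, at -0.58 with and -0.85 without that library. In Chat- replicate 4 the members split. Relative to the mean of the other 4 Chat- libraries, Blk was lower by a log2 difference of -0.80, Cd79b and Plcg2 by -0.43 each and Syk by -0.41, whereas Cd81 was 0.19 and Lyn 0.12 higher. Of the 9 members 4 were at their lowest and 2, Cd79a and Cd81, at their highest there. With Gm32220 added, Cd79a was no longer at its highest there (2278 CPM, against 2512 CPM in Chat- replicate 1). Of the 8940 genes with a mean of at least 10 CPM, 37.1% were at their lowest and 18.6% at their highest in that library.

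**Figure D3:**
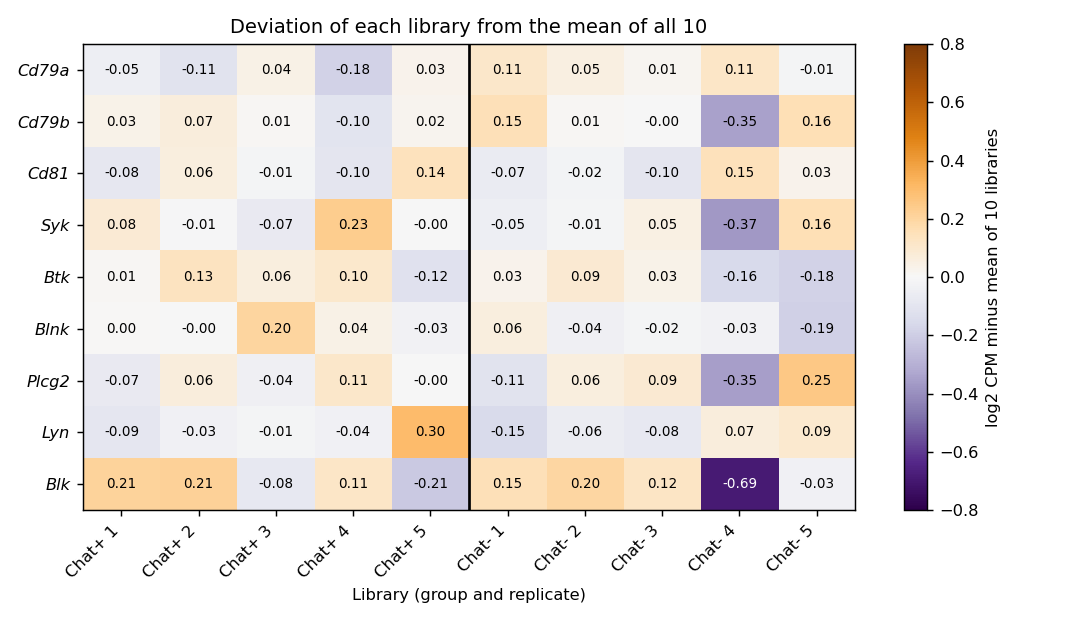
Deviation of each library's log2 CPM from the mean of all 10 libraries, with members as rows and libraries as columns (colour scale from -0.8 to 0.8, Chat+ left and Chat- right of the line). Of the 90 cells, 79 lie within 0.2 of 0, and the column of Chat- replicate 4 holds the lowest values, -0.69 for Blk, -0.37 for Syk and -0.35 for Cd79b and Plcg2.

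For each member the gene with the most similar pattern over the 10 libraries was sought among 8939 other genes with a mean of at least 10 CPM. Each is the highest of many correlations, so no p is given. They were Wipf1 for Cd79a (Pearson r = 0.92, Spearman rho = 0.85), Gm9843 for Cd79b (0.95 and 0.88) and Clasp2 for Cd81 (0.97 and 0.95). For the kinases they were Cybb for Lyn (0.97 and 0.94), Aamp for Blk (0.99 and 0.94), Sptan1 for Syk (0.96 and 0.93) and Jtb for Btk (0.96 and 0.87). For Blnk and Plcg2 they were Smc4 (0.91 and 0.81) and Myl12b (0.95 and 0.92).

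The rest of the pathway was read from 6 lists with 116 measured genes of 118. Of these, 0 passed over all genes tested with limma in either direction, against 0.00692% of all genes. With limma-voom 0 passed (0% of all genes), and with library quality weights 1 did, Ptpn22, where 0.727% of all genes passed. At an unadjusted p under 0.05 there were 4 higher and 1 lower, or 5 of 116, against 4.51% of all genes. The 4 higher were Cd9, Ptk2, Nfatc2 and Ptpn22, and the 1 lower was Ighd. Without Chat- replicate 4, 1 of the 116 passed (limma), Ptpn22, and 0.0415% of all genes did. The groups did not overlap for 2 of the 116, Cd9 and Ptpn22 (1.43% of all genes). The median log2 fold change over the 116 was 0.02, beside 0.04 over all genes and 0.05 over the 9 members.

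**Figure D4:**
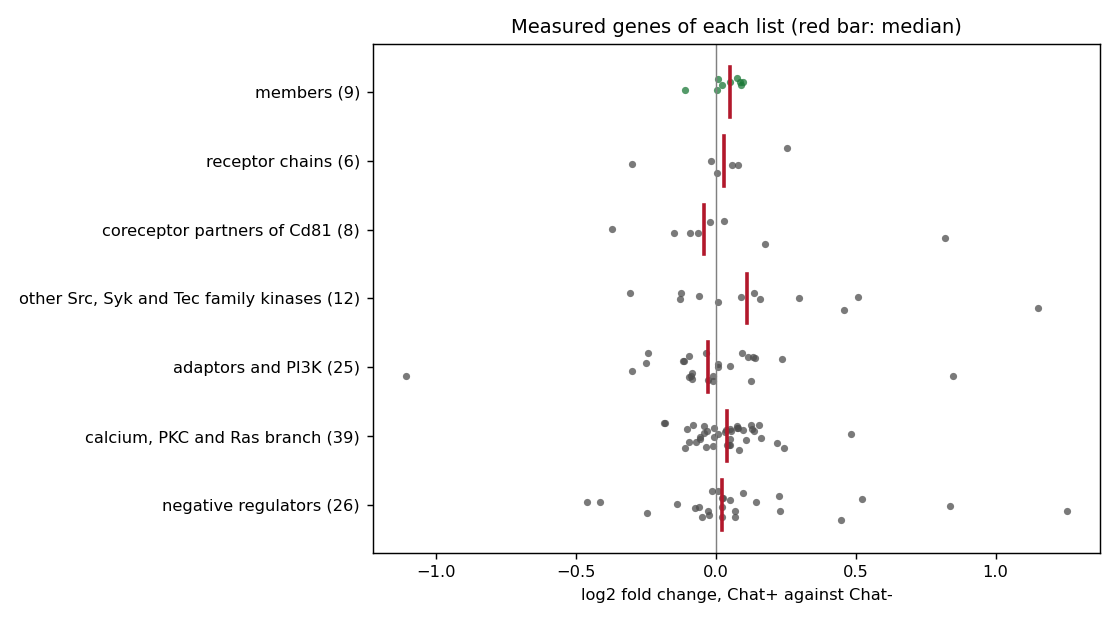
Log2 fold change, Chat+ against Chat-, of each measured gene in the 9 members and the 6 pathway lists (number of genes in parentheses), with the median as a red bar. The members span -0.11 to 0.10, and the widest values, from -1.11 for Gab1 to 1.26 for Cd5, belong to genes whose mean is under 1.5 CPM in both groups.

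Of the antibody heavy and light chain genes, 6 of 6 were measured and 0 passed. Ighm, the IgM heavy chain, had 6801 ± 1066 CPM across Chat+ libraries and 5647 ± 274 CPM across Chat- (SD, n = 5). Ighd, the IgD heavy chain, had 2206 ± 314 against 2704 ± 272 CPM, the 1 gene of the lists with an unadjusted p under 0.05 that was lower (log2 fold change -0.30 ± 0.14, SE, limma adjusted p = 0.999). The kappa chain gene Igkc had 4149 ± 723 against 3963 ± 493 CPM. Ighm and Ighd were the ends of the range of this list.

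Of the coreceptor partners and other tetraspanins, 8 of 9 were measured and 0 passed. Cr2, the complement receptor of the coreceptor, had 432 ± 58.6 CPM across Chat+ libraries and 449.8 ± 41.5 CPM across Chat- (SD, n = 5). Cd9, a tetraspanin related to Cd81, had the highest value of the list and did not pass, with 28.0 ± 6.84 against 15.8 ± 3.72 CPM (log2 fold change 0.82 ± 0.21, SE, limma adjusted p = 0.422). Ifitm3, at the other end, had 1.6 ± 0.991 against 1.98 ± 1.06 CPM.

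Of the other Src, Syk and Tec family kinases, 12 of 13 were measured, 0 passed and the median log2 fold change was 0.11. Fyn had 46.1 ± 8.97 CPM across Chat+ libraries against 49.7 ± 7.41 CPM across Chat- and Fgr 26.8 ± 5.05 against 27.7 ± 2.53 CPM (SD, n = 5). Tec, the relative of Btk, had 163 ± 13.7 against 158 ± 41.4 CPM. Lck, the Src family kinase of T cells, was the lowest of the list with 20.6 ± 4.69 against 25.5 ± 5.53 CPM (log2 fold change -0.31 ± 0.21, SE).

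The 25 adaptor and PI3 kinase genes were all measured, 0 passed and their median log2 fold change was -0.03. Bank1, a scaffold of B cells, had 714 ± 112 CPM across Chat+ libraries against 717 ± 92.8 CPM across Chat-, and Dapp1 85.8 ± 12.4 against 79.4 ± 14.3 CPM (SD, n = 5). Pik3ap1, an adaptor for PI3 kinase, had 208 ± 7.43 against 224 ± 35.6 CPM, and its catalytic subunit gene Pik3cd 399 ± 42.8 against 379 ± 71.3 CPM. The exchange factor genes Vav1 and Vav2 had 214 ± 32.2 against 202.5 ± 60.2 CPM and 158 ± 28.6 against 159 ± 30.1 CPM. The ends of the range were Gab1 (-1.11) and Gab2 (0.85), log2 fold changes that rest on means of at most 2.77 CPM.

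Below Plcg2, all 39 genes of the calcium, protein kinase C and Ras branch were measured, and 0 passed. Plcg1 had 39.6 ± 6.57 CPM across Chat+ libraries against 41.4 ± 8.39 CPM across Chat-, and the calcium channel gene Itpr1 162 ± 12.3 against 154 ± 18.0 CPM (SD, n = 5). Prkcb, the main protein kinase C gene of B cells, had 483 ± 16.4 against 472 ± 26.4 CPM, and the Ras activator Rasgrp3 208 ± 30.5 against 218.5 ± 12.5 CPM. Nfatc2, a transcription factor that calcium activates, was at the upper end of the list with 54.0 ± 14.6 against 37.8 ± 4.803 CPM (log2 fold change 0.48 ± 0.17, SE, limma adjusted p = 0.874), and Orai2 was at the lower end (-0.18).

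Of the 26 negative regulators, all measured, 0 passed. Csk, the kinase that switches Src family kinases off, had 639 ± 64.4 CPM across Chat+ libraries and 671 ± 132 CPM across Chat- (SD, n = 5). The phosphatase genes Ptpn6 and Inpp5d had 748 ± 96.2 against 808 ± 224 CPM and 299.96 ± 11.7 against 298 ± 42.2 CPM, and the inhibitory receptor Cd22 989 ± 71.9 against 1089 ± 74.9 CPM. Ptpn22, a phosphatase that acts with Csk on Src family kinases, had 83.2 ± 11.5 against 46.5 ± 6.35 CPM and missed the threshold (log2 fold change 0.84 ± 0.13, SE, limma adjusted p = 0.0872). It passed with library quality weights (limma adjusted p = 5.5e-04) and without Chat- replicate 4 (limma adjusted p = 0.021). The ends of the range were Dok2 (-0.46) and Cd5 (1.26), both with means under 1.5 CPM.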

How the data were processed

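The submitters' processing notes name cutadapt 2.6, Salmon 0.14.2 and the build GRCm38.p6. The labels' protocols name a directional and a further library kit, and the strand setting, annotation and final normalization tool are not stated in the sources used here. The deposited values are log2 values. All 10 libraries share the lowest value, -3.12, and with that offset (0.115 CPM, or 3.0 reads at the mean depth) removed the values sum to 1000000 CPM in each library. Depth was estimated as the number of reads that makes the most low values whole. Of values under 3 CPM, 35.4% to 48.7% were whole within 0.001 reads, so reads were not recovered, and estimated reads entered an alternative only.

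Limma 3.58.1 (R 4.3.3) was run on the deposited log2 values of all 14450 genes, using lmFit, then eBayes allowing the prior variance to follow the mean level. Group was the single factor, p was two-sided, and the threshold was 0.05 after Benjamini-Hochberg adjustment. A minimum of 10 reads at the mean depth in at least 5 libraries removed 0 genes. Levels are in CPM with the offset removed, and a fold change refers to log2(CPM + offset), which understates low genes. The fit was tested on simulated data with the same dispersion for all genes and no library that stood apart. That test therefore does not cover a library that stands apart, as in these data. Gene symbols matched 14374 identifiers, with positions, lengths and transcript sequences from GENCODE M21 (GRCm38). Protein sequences were not used here. Shared sequence is the part of each gene's distinct 31-base words, in percent, on either strand, found in transcripts of other genes. Python 3.11.15 made tables and figures.

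The members and lists were chosen with earlier results of these data known, so no p was adjusted over the members alone and no list was tested. Genes named beyond the members were 26 picked by role, the ends of each list's range and the most similar gene of each member, of which some are not reported here. Ptpn22, Ptk2 and Gm32220 were named after their values were seen. Alternatives were other scalings, offsets, filters, weights, limma-voom on estimated reads, the replicate number as a block, and leaving out each library.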

Additional observations from a re-analysis of the deposited data

Results flagged for a closer look

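A library was listed here when its gap to the nearest library of its group exceeded 0.71 of the group's range. With 5 libraries a group, chance lists about 1 in 20. Of 94 groups examined (44 genes and 3 ratios in both groups), 15 were listed, where chance gives 4.7, and 9 of the 15 were Chat- replicate 4. All groups draw on the same libraries, so a library that stands apart can be listed many times. The groups are thus not independent, and the 15 cannot be weighed against the 4.7 as a test.

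Among the members, Lyn was high in Chat+ replicate 5 (615 CPM, the next library at 494 CPM) and Blnk was high in Chat+ replicate 3 (342 CPM, the next at 306 CPM). Chat- replicate 4 was not listed for Blk, where it was the lowest of the 10 libraries.

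Around them, Chat- replicate 4 was low for Vav1 (95.9 CPM, the nearest library at 221 CPM), Vav2 (106 and 165 CPM), Tec (86.6 and 158 CPM), Pik3cd (255 and 389.8 CPM), Csk (437 and 715 CPM), Ptpn6 (412.5 and 851 CPM) and Inpp5d (226 and 305 CPM). It was high for Ighd (3185 and 2645 CPM) and Ifitm3 (3.8 and 1.89 CPM). Chat+ replicate 5 was low for Fyn (30.1 and 48.7 CPM) and Tec (139 and 164 CPM). Ighd was high in Chat+ replicate 3 (2755 and 2181 CPM), and Rasgrp3 was low in Chat- replicate 1 (197 and 222 CPM).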

How the results depend on the processing

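Under the 24 alternatives run for all 9 members 0 passed, with adjusted p from 0.592 to 0.99996 (limma). The alternative with no filter repeated the main fit, since the filter removed 0 genes. The direction of 6 members changed under some of the alternatives, at estimates of at most 0.0867 on the log2 scale. With library quality weights the log2 fold changes were -0.055 for Cd79b, -0.022 for Plcg2 and -0.0078 for Blk. With trimmed mean scaling they were -0.037 for Cd79b, -0.042 for Cd81 and -0.023 for Plcg2, and with median-of-ratios scaling -0.034, -0.039 and -0.019. Leaving out each library gave -0.076 to 0.051 for Cd79b, -0.031 to 0.042 for Cd81, -0.062 to 0.089 for Plcg2, -0.061 to 0.16 for Blk and -0.017 to 0.082 for Lyn, which was below 0 only without Chat+ replicate 5. The cause was not tested. Scaling to B cell reference genes moved the median of all genes from 0.04 to 0.10 and reversed 0 members.

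The count of genes passed, 1 of 14450, became 3 without the mean-variance trend, 105 with quality weights, 2 with B cell reference scaling, and 0 with a minimum mean of 10 CPM or with limma-voom. It ran from 1 to 6 when each library was left out, with 6 without Chat+ replicate 5 or Chat- replicate 4 and 2 without Chat- replicate 1 or 3. With the replicate block it was 6, of which 0 were members. The replicate numbers may not pair the samples: own-number correlations of deviations ran from -0.20 to 0.23, and 3 of 5 libraries matched best with their own number. With the replicate block and without number 4 in both groups the count was 89, and the log2 fold changes were -0.049 for Cd79b, -0.038 for Syk, -0.087 for Plcg2 and -0.077 for Blk. With the block and quality weights, chosen after seeing the data, it was 76, with -0.038 for Cd79b, -0.035 for Plcg2 and -0.0088 for Blk. With 5 libraries a group, Cd9 and Ptpn22 did not pass at log2 fold changes of 0.82 and 0.84 (limma adjusted p = 0.422 and 0.0872).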

Other observations

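The genes around the members in Chat- replicate 4 differed in direction by gene. Of 99 pathway genes with a mean of at least 10 CPM, 34 (34.3%) were at their lowest of 10 libraries there and 19 at their highest, close to the 37.1% and 18.6% of all genes at that level. Relative to the mean of the other 4 Chat- libraries, the exchange factor gene Vav1 was lower by a log2 difference of -1.25, as were the phosphatase gene Ptpn6 by -1.13 and the Btk relative Tec by -1.02. The antibody genes Igkc and Ighd were higher there, by 0.35 and 0.30, and so was the scaffold Bank1, by 0.32. The transcripts of Cr2, Cd22 and Rasgrp3 were within 0.1 of the other Chat- libraries. Whether cell content or RNA quality accounts for this was not tested.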
